A study of Mus musculus with 17 samples.

Results

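FGF2 and FGF10 are 2 fibroblast growth factors that were added to cultured mouse astrocytes, and their libraries were compared here directly with each other. The comparison took the 4 libraries labelled FGF2 (replicates 1 to 4) against the 3 labelled FGF10 (replicates 1 to 3), which are 7 of the 17 libraries of the series. The 4 PBS libraries, the vehicle control of both ligands, were read beside them. All cells were C57BL/6 astrocytes from whole brain without olfactory bulbs and cerebellum, which the methods take from pups at postnatal day 2 and purify by immunopanning, a capture on antibody-coated dishes. Cells binding CD45 or O4 were removed, cells binding HepaCAM were kept, and each ligand was added at 50 ng/ml on day 2 in vitro for 7 days. Every culture, PBS included, was kept in serum-free medium with heparin-binding EGF-like growth factor, an agonist of the EGF receptor, so no group was free of a growth factor. The methods count 3 FGF2 replicates where the labels hold 4, and all 4 were used.

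FGFs act through receptor tyrosine kinases, FGFR1 to FGFR4, on cells that also carry heparan sulfate. FGF2 binds mainly the IIIc splice forms of these receptors, which are typical of mesenchymal and neural cells, whereas FGF10 binds mainly the IIIb form of FGFR2 and, less strongly, of FGFR1, which are typical of epithelia. Activated receptors signal through FRS2 and GRB2 to the MAP kinase ERK, which induces ETS factors such as Etv4 and Etv5 and the feedback inhibitors of the Sprouty, Spred and Dusp families. The 3′ counts used here fall at transcript ends and do not separate the receptor splice forms.

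Depth ranged from 17481727 to 55550088 counts per library with FGF2 and from 25988617 to 48961011 with FGF10. Mitochondrial genes took 16.6% to 20.7% of the counts of these 7 libraries. The libraries fell into 2 sets by replicate number, 1 and 2 against 3 and 4, and the labels do not say what distinguishes the sets. On the first principal component (39% of the variance over 3309 genes), the libraries of replicates 1 and 2 lay between 14.3 and 18.3 whatever the treatment. FGF10 replicate 3 and PBS replicates 3 and 4 lay between -14.8 and -11.6, and FGF2 replicates 3 and 4 stood apart at -28.6 and -25.3. The set was therefore a term of every fit unless stated otherwise, and 238 of 14847 genes differed between the sets at an adjusted p below 0.05 (edgeR quasi-likelihood test). FGF10 has a single library, replicate 3, in the second set. The methods call the replicates biological, but the labels do not say whether libraries of 1 ligand came from separate cultures. The p-values therefore measure the spread between these libraries, which may be partly technical.

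**Figure D1:**
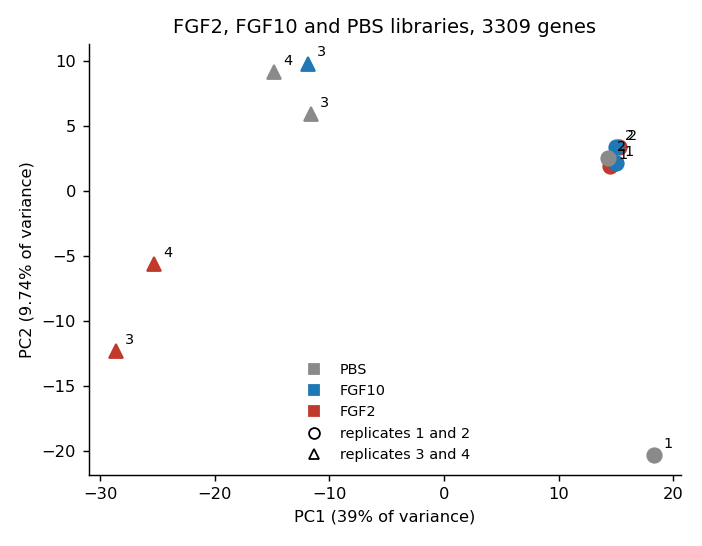
First and second principal components of log2 CPM for the FGF2, FGF10 and PBS libraries (1 point per library, numbered by replicate, shape by set). The 6 libraries of replicates 1 and 2 sit at 14.3 to 18.3 on PC1, and FGF2 replicates 3 and 4 sit at -28.6 and -25.3, beyond the other 3 libraries of their set.

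No gene passed the test between FGF2 and FGF10 over all 7 libraries. Of 14847 genes tested, 0 had an adjusted p below 0.05 (0%; edgeR quasi-likelihood test, Benjamini-Hochberg adjustment over all genes), and the smallest adjusted p was 1, that of Car8. At an unadjusted p below 0.05 there were 460 genes against 742 that uniform p-values would give, 215 higher with FGF2 (1.45% of the genes tested) and 245 higher with FGF10 (1.65%). The values in CPM (counts scaled to a common library size with TMM factors) of the 2 ligands did not overlap for 326 genes higher with FGF2 (2.2%) and 348 higher with FGF10 (2.34%). DESeq2's Wald test called 133 genes and the other settings 0 to 3, as the closing section gives. What could be seen depended on the level of a gene. Among the 1541 genes at a mean of 100 CPM or more, the median standard error of the log2 difference was 0.22 and 0 genes differed by more than 1 on the log2 scale, whereas among the 3962 genes below 5 CPM the median standard error was 3.94.

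**Figure D2:**
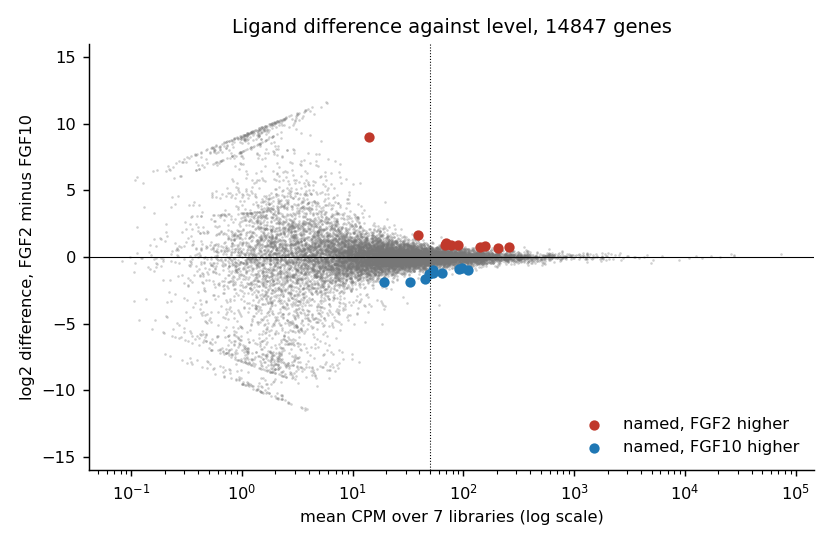
Log2 difference FGF2 minus FGF10 (vertical axis) against the mean CPM over the 7 libraries (horizontal, log scale) for 14847 genes, with the 20 genes of the rule below in colour and a dotted line at 50 CPM. The cloud narrows from a median standard error of 3.94 below 5 CPM to 0.22 from 100 CPM upwards.

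The genes described first were the 10 with the smallest p in each direction among those with a mean of at least 10 CPM and no overlap between the ligands. That choice used the values themselves, so the levels below are a description, and none of these genes passed the adjusted threshold. Their exact permutation p was 0.0571 in every case, the smallest that 4 libraries against 3 can give (two-sided). Nsa2, which encodes a factor of ribosome assembly, stood at 268.5, 266.9, 338.7 and 385.3 CPM with FGF2 and at 165.0, 158.8 and 222.2 CPM with FGF10. The 4 FGF2 libraries were all above the 3 FGF10 libraries, with a log2 difference of 0.72 (SE 0.17). Nsd2, a histone H3 lysine 36 methyltransferase, stood at 222.6, 154.5, 210.8 and 184.5 CPM with FGF2 and at 105.4, 126.8 and 95.1 CPM with FGF10, a log2 difference of 0.84 (SE 0.22). Ube3a, an E3 ubiquitin ligase, kept within 162.3 to 179.2 CPM in the 4 FGF2 libraries and was at 93.7, 123.0 and 95.5 CPM with FGF10. The remaining 7 genes higher with FGF2 were Car8, Ccdc25, Pnn, Snrnp48, Rev3l, Tut7 and Gnptg. Pnn and Snrnp48 act in pre-mRNA splicing, Rev3l is the catalytic subunit of DNA polymerase zeta and Tut7 uridylates RNA. Apart from Car8, the log2 differences of the 9 genes higher with FGF2 lay between 0.68 for Pnn and 1.63 for Ccdc25.

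On the other side, Ppp1r1a, an inhibitor of protein phosphatase 1, was at 48.8, 56.7, 22.6 and 27.9 CPM with FGF2 and at 123.0, 102.4 and 63.2 CPM with FGF10. Each FGF10 library was above each FGF2 library, and the log2 difference was -1.18 (SE 0.28). Fbxo32, the ubiquitin ligase subunit atrogin-1, was at 13.5, 6.8, 6.0 and 8.4 CPM with FGF2 and at 25.9, 39.1 and 33.1 CPM with FGF10, a log2 difference of -1.89 (SE 0.64). Cct4, a subunit of the chaperonin that folds actin and tubulin, was at 45.2, 81.9, 95.2 and 73.1 CPM with FGF2 and at 112.3, 97.6 and 171.5 CPM with FGF10. Nup93, a scaffold protein of the nuclear pore, was at 24.8, 9.9, 34.6 and 33.9 CPM with FGF2 and at 94.7, 44.5 and 69.9 CPM with FGF10. The other genes on this side were Zfp277, Tti1, Cuedc1, Pef1, Ppp2r2b and Fam102b, with log2 differences from -1.89 for Zfp277 to -0.88 for Cuedc1.

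Read beside PBS, 13 of these 20 genes lay farther from PBS with FGF10 than with FGF2. Nsa2 differed from PBS by 0.06 (SE 0.16) on the log2 scale with FGF2 and by -0.63 (SE 0.18) with FGF10, and Fam102b by 0.47 (SE 0.40) with FGF2 and by 1.41 (SE 0.35) with FGF10. Ppp1r1a was the opposite case, at -1.09 (SE 0.29) with FGF2 and 0.11 (SE 0.26) with FGF10. The 2 differences of a gene share the same 4 PBS libraries and are therefore given side by side only.

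**Figure D3:**
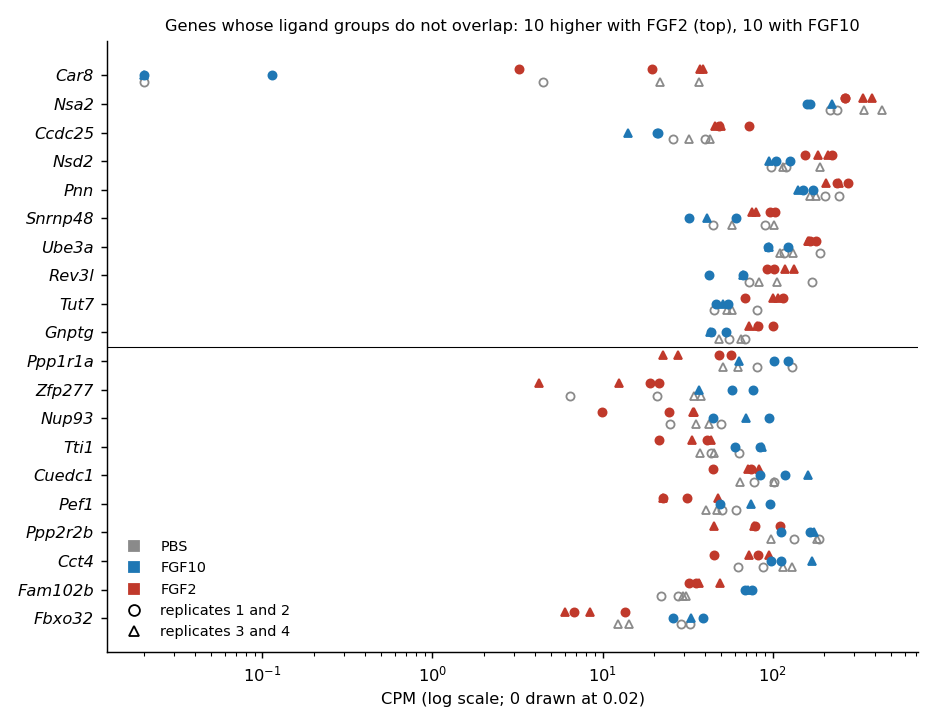
CPM of the 20 genes in each FGF2, FGF10 and PBS library (log scale, 1 point per library, open points for PBS, shape by set, values of 0 drawn at the left edge). The ligands do not overlap for any of them by the rule that chose them, and in 13 of the 20 the fitted log2 difference from PBS is larger in size with FGF10 than with FGF2.

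A small group of genes had counts with only 1 of the ligands. Every FGF2 library had more than 3 counts and every FGF10 library at most 3 for 29 of the 14847 genes tested, and the reverse held for 27 of the 14847. Car8, a carbonic anhydrase-related protein that binds the inositol trisphosphate receptor, had 1073, 57, 1775 and 1603 counts with FGF2 and 3, 0 and 0 with FGF10. Its pooled ratio was 1060 (exact 95% interval 362 to 5130, for counting error only). Car8 was also at 0, 4.45, 37.2 and 21.8 CPM in the 4 PBS libraries, so that PBS replicate 1 was like the FGF10 libraries and the other 3 were within the FGF2 range. Adamts4, an aggrecan-cleaving protease, had 395, 243, 184 and 632 counts with FGF2 and 0 in all 3 FGF10 libraries, at least 341-fold higher when the FGF10 group is set to 3 counts. The PBS libraries had 398, 491, 469 and 0 counts of Adamts4. Kcnf1, a modulatory potassium channel subunit, had 495, 54, 673 and 417 counts with FGF2 and 0 with FGF10, at least 385-fold higher, and was at 0 in the 4 PBS libraries as well. In the other direction, the transcript of Fgf2 itself was at 0 in all 4 libraries given FGF2 protein and at 1.22, 1.14 and 13.5 CPM with FGF10, at least 287-fold higher with FGF10 by the same floor. In PBS it was at 0, 1.95, 11.2 and 0 CPM. Sema3c, a secreted guidance cue, had 244 to 357 counts in the FGF10 libraries and 0 in the FGF2 and PBS libraries. Adamts4, Kcnf1 and Sema3c were chosen after their values were seen. Counts at these levels were patchy. A gene with a mean of 5 to 10 CPM over the remaining libraries had no count in a given library of the 7 in 8.6% to 25.3% of cases.

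No gene of the FGF system passed the test either. Of 15 receptors, adaptors and co-receptors listed, 13 were tested, 5 were higher and 8 lower with FGF2, 0 were called, and the median log2 difference was -0.24 beside 0.01 over all genes tested. Fgfr1 was at 215.2, 171.0, 175.9 and 118.3 CPM with FGF2 and at 165.3, 146.7 and 82.8 CPM with FGF10, a log2 difference of 0.52 (SE 0.24, unadjusted p = 0.0473, adjusted p = 1 by edgeR). The libraries of the ligands overlapped. Fgfr2, the gene of the main FGF10 receptor, was at 71.0, 65.3, 22.3 and 64.6 CPM with FGF2 and at 20.9, 50.0 and 45.4 CPM with FGF10. Fgfr3 was at 96.8, 151.4, 36.0 and 44.9 CPM with FGF2 and at 65.5, 75.6 and 74.5 CPM with FGF10, while Fgfr4 had at most 21 counts in any of the 7 libraries and was not tested. The decoy receptor Fgfrl1 differed by 0.22 (SE 0.34). Grb2, which links the receptors to Ras, differed by -0.05 (SE 0.18), Gab1 by -0.24 (SE 0.29), Plcg1 by 0.59 (SE 0.38), Frs2 by -0.42 (SE 0.94) and Frs3 by -1.02 (SE 2.94). The membrane proteins Flrt2 and Flrt3, which bind FGF receptors, overlapped between the ligands, whereas Flrt1 was at 0.58 CPM or less in the FGF2 libraries and at 11.1, 8.45 and 3.40 CPM with FGF10, and Klb, the co-receptor of hormonal FGFs, was at most 0.11 CPM with FGF2 and at 3.77, 1.25 and 0 CPM with FGF10.

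Of 20 FGF ligands and binding proteins, only Fgf1, Fgf2, Fgf18 and Fgfbp3 were tested, and 16 were not. Fgf10 had at most 60 counts in any of the 7 libraries. Fgf1 was at 2.37 to 18.4 CPM with FGF2 and at 0.78 to 20.4 CPM with FGF10, and Fgfbp3, which releases FGFs from the matrix, at 7.11 to 35.3 CPM and 21.8 to 28.1 CPM. Fgf18 was at 0.48 CPM in 1 FGF2 library and at 2.17 CPM in 1 FGF10 library, and at 0 in the other 5. Of 26 heparan sulfate genes 22 were tested, 0 were called, and the smallest p in each direction belonged to the sulfotransferase Hs6st2 (2.26, SE 2.21) and the core protein Sdc3 (-0.41, SE 0.24).

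The 12 tested members of the list of ERK feedback regulators and ETS factors divided evenly, 6 higher and 6 lower with FGF2, with 0 called and a median of 0.00. Etv5 was at 57.6, 28.8, 149.9 and 93.4 CPM with FGF2 and at 39.1, 11.3 and 102.4 CPM with FGF10 (0.57, SE 0.42), and Etv4 differed by -0.44 (SE 0.43) and Etv1 by 0.42 (SE 0.32). Spry2 differed by 0.18 (SE 0.25), Spred1 by 0.49 (SE 0.24) and Il17rd by -0.43 (SE 0.40), and the low members Dusp5, Spred2 and Spred3 had standard errors between 1.08 and 3.92. Dusp6, the cytosolic ERK phosphatase, was at 12.6 and 17.1 CPM in FGF2 replicates 1 and 2, but at 170.2 and 77.01 CPM in replicates 3 and 4. With FGF10 it was at 23.8, 38.8 and 45.5 CPM and with PBS at 20.4, 26.2, 65.6 and 96.7 CPM. Spry4 was at 0, 10.4, 77.4 and 53.7 CPM with FGF2 and at 5.87, 3.80 and 6.00 CPM with FGF10. Spry1 was at 3.19, 0.23, 41.3 and 16.4 CPM with FGF2 and at 13.6, 0 and 14.2 CPM with FGF10. With PBS, Spry4 was at 1.11, 4.68, 26.7 and 8.56 CPM and Spry1 at 15.8, 8.4, 26.9 and 47.3 CPM. In each of these 3 genes the FGF2 libraries of replicates 3 and 4 were the highest of the 4 FGF2 libraries. PBS replicates 3 and 4 were likewise above PBS replicates 1 and 2 in all 3 genes.

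Whether the ligand difference itself differed between the replicate sets was tested as an interaction of set and ligand. Of 17398 genes, 44 were called (0.253%; 23 with a higher and 21 with a lower FGF2 minus FGF10 difference in replicates 3 and 4), and 27 of them had 3 counts or fewer in 1 combination of ligand and set. When only the 3289 genes with a mean of at least 50 CPM were tested, 4 were called (0.122%), Mbp, Gja1, Gfap and Ednrb, and all 4 were lower with FGF2 in replicates 3 and 4. Without 1 library at a time these 4 became 1 (without FGF2 replicate 1, FGF2 replicate 2 or FGF10 replicate 2), 2 (without FGF10 replicate 1), 15 (without FGF2 replicate 3) and 31 (without FGF2 replicate 4), and the 44 became 168 without FGF2 replicate 3 and 85 without FGF2 replicate 4. Gja1 encodes connexin 43, the main gap junction protein of astrocytes, Gfap their intermediate filament protein, Ednrb the type B endothelin receptor and Mbp the myelin basic protein of oligodendrocytes. The sequences from 250 bases before to 50 bases after the RefSeq start sites of Gja1, Gfap and Ednrb (build GRCm38.p6) are shown because these 3 astrocyte genes were called in the interaction. They lie at chr10:56377050-56377349 on the plus strand, chr11:102897151-102897450 on the minus strand and chr14:103843652-103843951 on the minus strand. Capitals mark matches, on either strand, to the AP-1 motif TGANTCA, the ETS motif CCGGAA or the STAT motif TTCNNNGAA, each written 5′ to 3′:
Gja1: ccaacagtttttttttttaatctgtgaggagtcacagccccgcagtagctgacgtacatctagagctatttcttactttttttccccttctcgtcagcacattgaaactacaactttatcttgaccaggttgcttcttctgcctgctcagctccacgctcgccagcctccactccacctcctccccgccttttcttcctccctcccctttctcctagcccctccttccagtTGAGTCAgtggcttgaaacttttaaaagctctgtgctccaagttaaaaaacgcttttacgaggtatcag
Gfap: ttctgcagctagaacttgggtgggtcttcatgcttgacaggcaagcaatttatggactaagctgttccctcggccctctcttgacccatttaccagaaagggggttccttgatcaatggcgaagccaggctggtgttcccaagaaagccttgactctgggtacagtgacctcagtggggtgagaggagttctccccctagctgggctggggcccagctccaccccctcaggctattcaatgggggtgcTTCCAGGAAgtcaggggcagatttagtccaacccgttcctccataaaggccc
Ednrb: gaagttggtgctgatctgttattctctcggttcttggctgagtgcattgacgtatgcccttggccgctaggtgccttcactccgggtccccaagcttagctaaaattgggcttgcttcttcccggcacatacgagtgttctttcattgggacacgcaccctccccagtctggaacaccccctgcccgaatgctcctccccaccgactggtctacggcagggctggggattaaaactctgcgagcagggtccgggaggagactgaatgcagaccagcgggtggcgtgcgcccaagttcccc
Gja1 held 1 AP-1 match, Gfap 1 STAT match, and Ednrb none of the 3 motifs. Among 32851 windows of the same kind, 7.81% held the AP-1 motif, 14.9% the ETS motif and 8.3% the STAT motif, and a match is a description of letters only.

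None of these genes was called between the ligands in replicates 1 and 2. Gja1 was at 324.2 and 314.0 CPM in FGF2 replicates 1 and 2 and at 270.4 and 234.3 CPM in the matching FGF10 libraries. In the second set it was at 58.2 and 55.1 CPM with FGF2, at 215.1 CPM with FGF10 and at 198.2 and 155.9 CPM with PBS. The FGF2 libraries of that set were thus the lowest of the 11, and the log2 difference FGF2 minus FGF10 was -1.94 (SE 0.30, adjusted p = 0.00123 by edgeR) against 0.36 (SE 0.25) in replicates 1 and 2. Gfap was at 303.6 and 396.7 CPM in FGF2 replicates 1 and 2 and at 10.8 and 28.8 CPM in replicates 3 and 4. FGF10 gave 314.8, 258.3 and 87.5 CPM and PBS 253.6, 314.4, 67.2 and 45.1 CPM. Gfap was therefore lower in the second set under all treatments and lowest with FGF2, with a log2 difference between the ligands of -2.16 (SE 0.39, adjusted p = 0.00761 by edgeR) there and 0.31 (SE 0.33) in the first set. Ednrb was at 364.0, 368.8, 172.7 and 218.3 CPM with FGF2 and at 232.4, 346.9 and 522.5 CPM with FGF10, while PBS gave 341.8, 363.6, 488.8 and 385.2 CPM. In the second set it was higher than in the first with PBS and FGF10 but lower with FGF2 (-1.43, SE 0.28, adjusted p = 0.011 by edgeR).

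**Figure D4:**
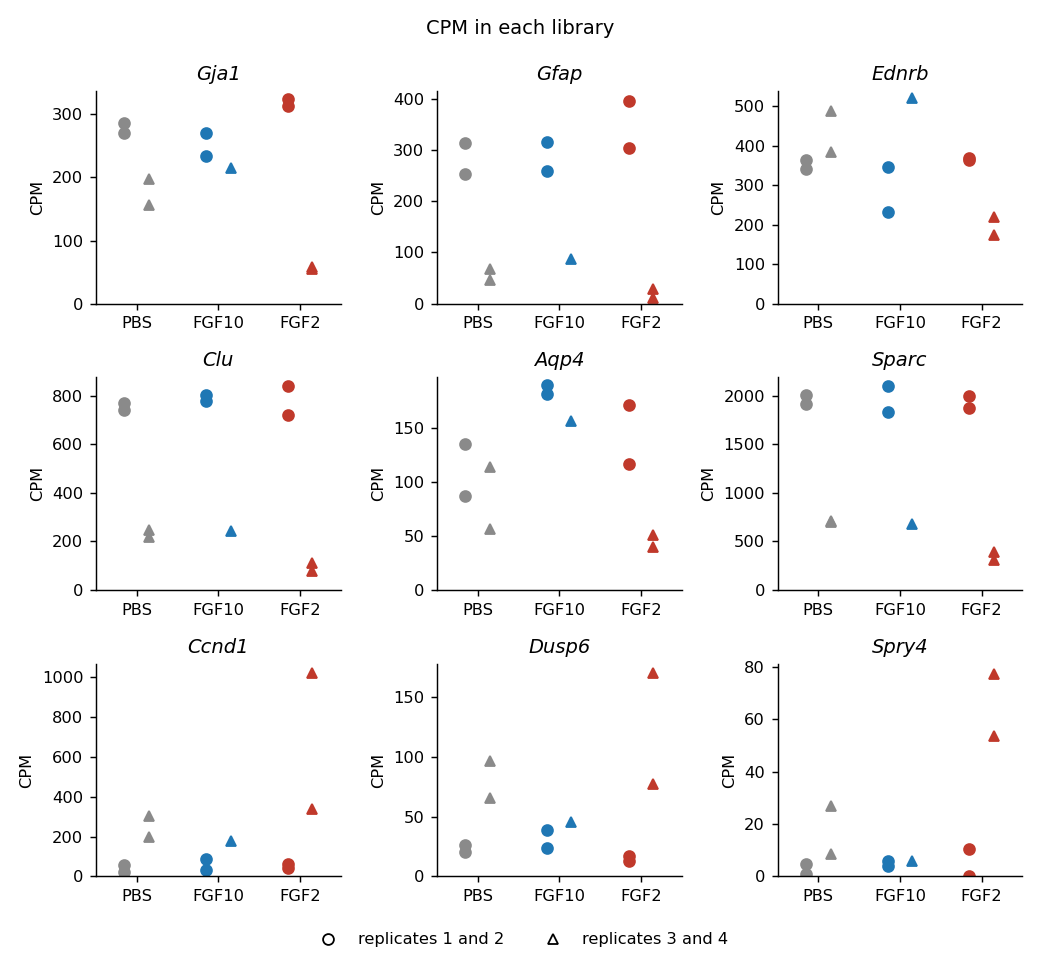
CPM of 9 genes in each PBS, FGF10 and FGF2 library (1 point per library, circles for replicates 1 and 2, triangles for replicates 3 and 4, axes from 0). The red triangles, FGF2 replicates 3 and 4, are the lowest of the 11 libraries for Gja1 (58.2 and 55.1 CPM) and Gfap (10.8 and 28.8 CPM) and the highest for Ccnd1 (1020 and 338.4 CPM) and Spry4 (77.4 and 53.7 CPM).

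The ligand difference within each set was then read from the same fit, a comparison that was added after the data had been examined. The genes named from it were likewise chosen after their values were seen. Within replicates 1 and 2, 0 of the 3289 genes at 50 CPM or more were called (133 at an unadjusted p below 0.05), and 2 of 17398 (0.0115%) when every gene was tested. These 2 were Birc5 (survivin) and Stil, which act in cell division and centriole duplication. Birc5 was at 8.95 and 18.1 CPM with FGF2 and at 0 and 0.08 CPM with FGF10, and Stil at 7.64 and 22.6 CPM with FGF2 and at 0 in both FGF10 libraries. PBS gave 0.10 and 2.37 CPM of Birc5 and 0 and 8.21 CPM of Stil in the same set. Within replicates 3 and 4, 23 of the 3289 were called (0.699%), 2 higher with FGF2 (0.0608%) and 21 lower (0.638%), and 94 of 17398 (0.54%) when every gene was tested (44 higher, 0.253%, and 50 lower, 0.287%). This contrast rests on a single FGF10 library, whose spread is assumed to be that of the others. With 1 library left out, the 23 became 2 without FGF2 replicate 1, FGF10 replicate 1 or FGF10 replicate 2 (Mbp and Gja1), 8 without FGF2 replicate 2 and 45 without FGF2 replicate 4, and the 94 became 232 without FGF2 replicate 3. All 23 kept their direction each time, which the choice of the genes and the design largely fixed. The difference comes from FGF2 replicates 3 and 4 and FGF10 replicate 3, and FGF10 replicate 3 could not be left out. Many of the 21 lower genes are known from astrocytes. Aqp4 is the water channel of astrocyte endfeet, Clu and Cst3 encode the secreted clusterin and cystatin C, Sparc a secreted matrix protein that acts on synapses, and Ndrg2 a cytosolic protein enriched in astrocytes. Id4 is an inhibitor of basic helix-loop-helix factors, and Cryab a small heat shock protein. Also lower were Mbp, Gja1, Gfap, Nnat, Kcne1l, Pla2g7, Ednrb, P4ha3, 2310022B05Rik, Nrbp2, Mapt, Pde1b and Wipi1.

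Clu was at 720.6 and 839.2 CPM in FGF2 replicates 1 and 2 and at 79.1 and 111.9 CPM in replicates 3 and 4, where FGF10 gave 244.5 CPM and PBS 247.0 and 217.6 CPM. The FGF10 library lay between the 2 PBS libraries of the set and the FGF2 libraries lay below all 3, with a log2 difference between the ligands of -1.37 (SE 0.25, adjusted p = 0.00761 by edgeR). Sparc was at 1997 and 1878 CPM in FGF2 replicates 1 and 2 and at 395.5 and 311.3 CPM in replicates 3 and 4, where FGF10 gave 677.7 CPM and PBS 703.7 and 707.8 CPM. Aqp4 was at 51.0 and 39.5 CPM with FGF2, 156.7 CPM with FGF10 and 113.6 and 56.5 CPM with PBS in that set. There the FGF10 library was above and the FGF2 libraries were below both PBS libraries. Mbp had 0 counts in FGF2 replicates 3 and 4 and 2179 counts in FGF10 replicate 3, at least 1680-fold lower with FGF2 when the pair of FGF2 libraries is set to 3 counts. In the first set Mbp was at 110.6 and 109.5 CPM with FGF2 and at 45.1 and 95.9 CPM with FGF10. Without Mbp, the 20 genes were 1.94-fold to 4.48-fold lower with FGF2. The 2 higher genes were Arpc1b, a subunit of the actin-nucleating Arp2/3 complex, and Ano6, a phospholipid scramblase. Ano6 was at 115.9 and 78.4 CPM with FGF2, 11.3 CPM with FGF10 and 39.2 and 55.7 CPM with PBS in replicates 3 and 4, so that the FGF10 library was the one farther from PBS.

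**Figure D5:**
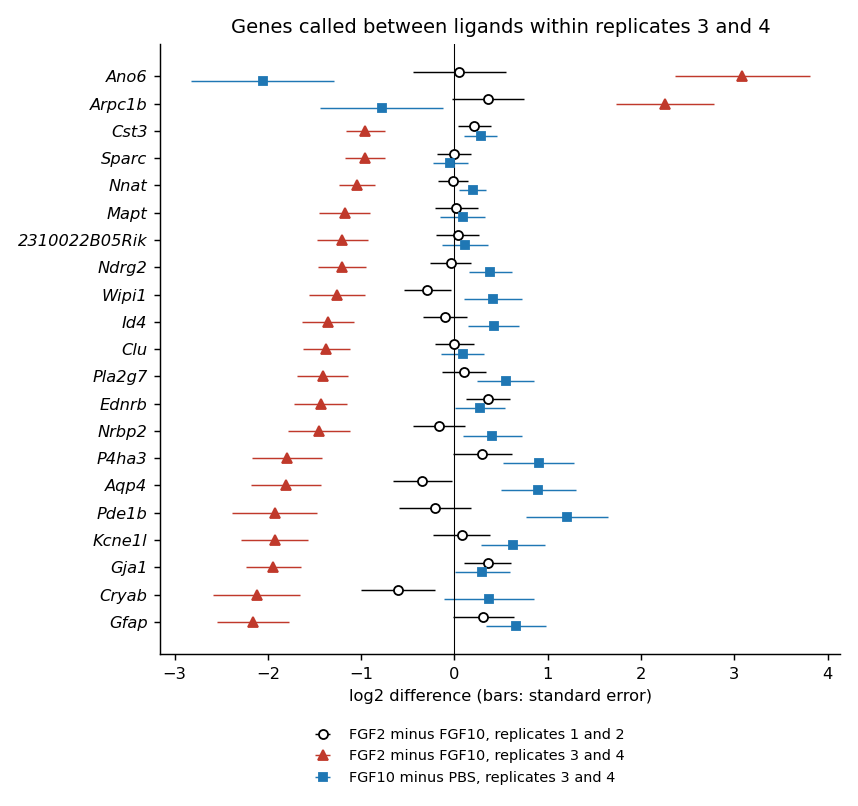
Log2 differences with standard errors for 21 of the genes called between the ligands within replicates 3 and 4, without Mbp, which had no count in FGF2 replicates 3 and 4. The red triangles (FGF2 minus FGF10, replicates 3 and 4) run from -2.16 for Gfap to 3.09 for Ano6, while the same difference in replicates 1 and 2 (open circles) stays within 0.604 of 0 and the blue squares show FGF10 minus PBS in replicates 3 and 4.

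The same genes are given against PBS as a description. They were chosen for low values in FGF2 replicates 3 and 4 against FGF10 replicate 3. Low values of those FGF2 libraries and high values of that FGF10 library against PBS both follow in part from the choice. In replicates 3 and 4, both FGF2 libraries were below both PBS libraries for 20 of the 21 lower genes, all except Pde1b (95.2%, against 19.1% of the 3289 genes). FGF10 replicate 3 was above both PBS libraries for 15 of the 21 (71.4%, against 32.4% of the 3289 genes). It lay between them for 5 (23.8%, against 32.2%). The median log2 difference from PBS over the 21 genes was -1.04 with FGF2 and 0.35 with FGF10 in that set, and 0.11 with FGF2 in replicates 1 and 2. FGF2 against PBS within replicates 3 and 4 called 21 of the 3289 genes (0.638%), 2 higher (0.0608%) and 19 lower (0.578%), and 12 of the 21 genes above were among those called. Gja1 was 3.14-fold lower with FGF2 than with PBS (adjusted p = 0.000417 by edgeR), Clu 2.45-fold (adjusted p = 0.000823) and Sparc 2.01-fold (adjusted p = 0.000947). FGF10 against PBS in the same libraries called 1 gene of 3289 (0.0304%; 159 at an unadjusted p below 0.05), and FGF2 against PBS within replicates 1 and 2 called 0 (0%; 130 at an unadjusted p below 0.05). When every gene was tested, the order was reversed, with more genes called in replicates 3 and 4 for FGF10 against PBS than for FGF2 against PBS. FGF10 has 1 library in that set and FGF2 has 2, so these counts do not rank the ligands by distance from PBS. With PBS as the comparator in place of FGF10, the interaction of set and FGF2 called 2 of the 3289 genes. For 13 of the 21 genes both PBS libraries of replicates 3 and 4 were also below both of replicates 1 and 2 (61.9%, against 21.6% of the 3289 genes), among them Clu, at 742.1 and 770.7 CPM in the first set of PBS libraries and at 247.0 and 217.6 CPM in the second.

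The G1 list gave no common direction in replicates 3 and 4. Of its 8 members at 50 CPM or more, 4 were higher and 4 lower with FGF2 (median 0.15), and 0 were called. Ccnd1, chosen after its values were seen, encodes cyclin D1, a mitogen-induced activator of the G1 phase. It was at 43.3 and 64.8 CPM in FGF2 replicates 1 and 2 and at 1020 and 338.4 CPM in replicates 3 and 4. FGF10 gave 85.6, 32.7 and 178.5 CPM and PBS 23.7, 56.8, 197.2 and 304.5 CPM. The FGF2 values of the second set were above all others, and the interaction of set and ligand was 2.05 on the log2 scale (SE 0.44, adjusted p = 0.00292 over every gene tested, 0.349 over genes at 50 CPM or more). Of the 18 tested genes of the G1 list, 4 were called higher with FGF2 within replicates 3 and 4 when every gene was tested, Ccnd1, Ccnd2, E2f1 and the kinase inhibitor Cdkn1a, and 0 lower. Of all 17398 genes, 0.253% were called higher and 0.287% lower there. E2f1 had no count in FGF10 replicate 3, the single FGF10 library of that set. Over the 5 ERK feedback and ETS genes at 50 CPM or more (Dusp6, Spry2, Spred1, Etv1 and Etv5), all 5 were higher with FGF2 in replicates 3 and 4 and 4 in replicates 1 and 2, with 0 called. Their medians in replicates 3 and 4 were 0.44 against FGF10, 0.60 for FGF2 against PBS and -0.17 for FGF10 against PBS. Of the 3289 genes, 1752 were higher with FGF2 in that set. Among 6 cholesterol synthesis genes at that level 5 were higher (median 0.61), led by Cyp51, lanosterol demethylase, at 51.7, 71.1, 181.2 and 177.5 CPM with FGF2 and 61.5, 40.2 and 51.5 CPM with FGF10. PBS gave 50.2, 45.6, 123.7 and 109.4 CPM of Cyp51. In replicates 3 and 4 Cyp51 differed from PBS by 0.62 with FGF2 and by -1.20 with FGF10 (log2), so the FGF10 library was the one farther from PBS. Over all 20 genes of that list the median in the 7 libraries was 0.16, with 0 called.

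More mitosis genes were higher than lower with FGF2, and none passed the test. Of 20 tested, 12 were higher and 8 lower, 0 were called and the median was 0.26, and 3 were higher at an unadjusted p below 0.05 where 1.45% of all genes were. Top2a, topoisomerase II alpha, was at 208.7, 182.8, 791.6 and 595.2 CPM with FGF2 and at 130.1, 128.1 and 529.0 CPM with FGF10. Within each set the FGF2 libraries were the higher ones (0.52, SE 0.17, unadjusted p = 0.0105). The other 2 were Cenpf and Birc5, chosen after their values were seen. Cenpf, a kinetochore protein, was at 67.4, 69.9, 241.1 and 201.7 CPM with FGF2 and at 21.5, 43.6 and 199.3 CPM with FGF10. Of the 8 mitosis genes at 50 CPM or more, 7 were higher with FGF2 in each set. The 20 DNA replication genes had a median of -0.01, with 9 higher and 11 lower. Among 18 neural progenitor genes, 10 higher and 8 lower (median 0.06), Nes, the intermediate filament nestin, was at 104.6, 117.8, 381.8 and 221.9 CPM with FGF2 and at 100.8, 45.5 and 120.4 CPM with FGF10 (0.89, SE 0.31, unadjusted p = 0.014). PBS gave 101.2, 76.1, 163.7 and 285.4 CPM of Nes. In replicates 3 and 4 Nes differed from PBS by 0.42 with FGF2 and by -0.92 with FGF10 (log2). The immediate early genes had a median of 0.22 (9 higher and 6 lower of 15) and were represented by Ier2 at 1.08 (SE 0.66).

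Of the 23 tested genes of mature astrocytes, 9 were higher and 14 lower with FGF2 over the 7 libraries, 0 were called, and the median was -0.07. Within replicates 3 and 4, of the 19 members at 50 CPM or more 8 were higher and 11 lower (median -0.05), and 5 were called lower, Gja1, Gfap, Aqp4, Ndrg2 and Cst3. Of all 3289 genes at that level, 21 were called lower (0.638%). Sparcl1, a secreted protein related to Sparc, went the other way at 537.4, 491.0, 388.7 and 252.8 CPM with FGF2 and 266.8, 365.9 and 182.0 CPM with FGF10 (0.75, SE 0.20, unadjusted p = 0.00235). It was higher with FGF2 in each set although the libraries overlapped across the sets. The glutamate transporter Slc1a2 was at 452.3, 522.7, 304.2 and 267.1 CPM with FGF2 and at 377.2, 294.6 and 252.5 CPM with FGF10 (0.40, SE 0.18). The reactive astrocyte list had 8 members higher and 9 lower of 17 (median -0.11), with Cp at 0.32 (SE 0.42) and S1pr3 at -1.31 (SE 0.63), and the matrix list 9 higher and 9 lower of 18 (median -0.03), with Adamts5 at 2.86 (SE 2.40) and Sparc at -0.40 (SE 0.19).

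The 9 genes Lhx2, Slc1a2, Fgfr3, Mfge8, Zic4, Lrig1, Slc6a11, Agt and Igsf1 were listed because the study's text names them, all but Fgfr3 for septal astrocytes, and none of them passed the test. The libraries of FGF2 and FGF10 overlapped for all 9. Lhx2, a LIM homeobox factor, was at 132.5 ± 34.6 CPM with FGF2 (SD, n = 4) and at 179.5 ± 19.7 CPM with FGF10 (SD, n = 3), and Slc6a11, the GABA transporter GAT-3, at 294.2 ± 68.7 and 330.1 ± 81.5 CPM. Mfge8, a secreted bridging protein of phagocytosis, was at 457.5 ± 173.5 and 585.3 ± 192.5 CPM, and Lrig1, a negative regulator of receptor tyrosine kinases, at 223.4 ± 83.0 and 185.2 ± 50.2 CPM. Zic4 stood at 20.8 ± 6.84 and 11.8 ± 3.42 CPM, Igsf1 at 14.5 ± 16.4 and 11.4 ± 12.2 CPM and Agt, angiotensinogen, at 46.2 ± 41.2 and 52.5 ± 10.03 CPM. These SDs pool both replicate sets and so include the difference between the sets. Agt was at 88.4, 72.6, 0.23 and 23.6 CPM with FGF2 and at 59.1, 57.6 and 41.0 CPM with FGF10. Its log2 difference between the ligands was 0.47 in replicates 1 and 2 and -1.79 in replicates 3 and 4. The log2 differences of Lhx2, Slc6a11, Mfge8 and Lrig1 were -0.38 (SE 0.22), -0.25 (SE 0.17), -0.38 (SE 0.27) and 0.14 (SE 0.21).

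All 10 listed astrocyte markers were counted in these libraries, and they summed to 3410 to 5390 CPM with FGF2 and 3630 to 4980 CPM with FGF10. In bulk libraries, fewer cells of a type and less RNA per cell cannot be told apart. Microglia markers summed to at most 4.34 CPM and Csf1r, Aif1, Ptprc, C1qa, C1qb and Trem2 were at 0 in all 7 libraries, and of the endothelial and mural markers Cldn5, Cdh5, Tek and Flt1 were at 0. Oligodendrocyte lineage markers, among them Mbp, summed to 2240, 2370, 3820 and 4490 CPM with FGF2 and to 2330, 2120 and 3660 CPM with FGF10, and neuron markers to 656 to 882 and 722 to 914 CPM. Ependymal markers summed to 457, 384, 135 and 88.4 CPM with FGF2 and to 649, 437 and 177 CPM with FGF10. Endothelial and mural markers summed to 18.1, 18.6, 0.65 and 0 CPM with FGF2 and to 39.2, 46.5 and 5.85 CPM with FGF10, with the pericyte gene Pdgfrb at 0 in FGF2 replicates 3 and 4. Fibroblast markers summed to 28.2 to 33.7 and 48.4 to 60.4 CPM, and choroid plexus markers to 37.9 to 75.5 and 49.9 to 75.9 CPM. In replicates 3 and 4, the ependymal sum was thus lower and the oligodendrocyte sum higher than in replicates 1 and 2 with either ligand. The PBS sums moved the same way, from 480 and 480 to 245 and 248 CPM (ependymal) and from 2150 and 2180 to 3750 and 4120 CPM (oligodendrocyte). Olig1 and Olig2, also on the progenitor list, were the largest oligodendrocyte members (means of 1024 and 1310 CPM over the 7 libraries). Not every member rose, since Mbp, Pdgfra and Cnp were lower in FGF2 replicates 3 and 4 than in replicates 1 and 2. The part of these cells in the results above was not tested.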

How the data were processed

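RNA was taken from FGF2-treated (n = 4), FGF10-treated (n = 3) and PBS-treated (n = 4) astrocyte cultures and read as 3′-end tags (QuantSeq). The authors aligned reads to GRCm38 with STAR and deposited raw counts per gene. The annotation and the strand setting were not given in the sources used here, so reads of overlapping or antisense genes may not be separated. The table held 56805 rows, and the 114 spike-in rows were left out of library sizes and tests. A further 6 columns of the other samples were not used here, and 36954 of the 56691 genes had no count in the 7 libraries.

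Counts were filtered with filterByExpr (minimum count 10, minimum total 15), scaled by TMM and fitted with edgeR 4.0.16 (R 4.3.3) in a quasi-likelihood model with replicate set and ligand. Differences are FGF2 minus FGF10, SE is the log2 difference divided by the root of F, and genes with a Benjamini-Hochberg adjusted p below 0.05 over all genes tested were called. CPM values of all groups come from 1 TMM scaling of the 11 FGF and PBS libraries. The interaction of set and ligand, and the ligand difference within each set, came from a model with both terms and their product. DESeq2 1.42.0 was an alternative only. Floors of 3 counts and 95% intervals cover counting error only. The steps were tested on simulated data.

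Genes were named by rule: the 10 genes per direction with the smallest p, no overlap and a mean of at least 10 CPM; all tested FGF receptors, adaptors, ligands and ERK feedback genes; the smallest p in each direction of every other list; and 9 genes of the study's text. The comparison, the genes and the lists were chosen with earlier results of these data known. Some genes that the rule names are not reported here. Promoter sequences are from RefSeq (GRCm38.p6).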

Additional observations from a re-analysis of the deposited data

Results flagged for a closer look

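By the interaction term of edgeR's quasi-likelihood test over every gene tested, the ligand difference itself differed between the replicate sets in 44 of 17398 genes. The 7 given here are among those also called between the ligands within replicates 3 and 4 at 50 CPM or more. The interaction on the log2 scale was -14.8 for Mbp, -2.27 for Gja1, -2.44 for Gfap, -1.98 for Kcne1l, -1.76 for Ednrb and -2.06 for P4ha3, and 3.06 for Ano6. The value of Mbp rests on 0 counts in FGF2 replicates 3 and 4 and is no bound. Depth, RNA quality or culture differences between the sets were not tested as a source, because the labels do not describe the sets and FGF10 has 1 library in the second.

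A single FGF2 library lay far from the other 3 for 6 of the 109 genes checked, and chance flags about 1 in 20 groups. That rate does not hold where the other 3 libraries are at 0, as for Dusp5, Klb, Flrt1 and Fgf18. There any count in 1 library is flagged, however small. Ccdc25 was at 72.5 CPM in FGF2 replicate 2, its highest value, and Fgfr2 at 22.3 CPM in FGF2 replicate 3, its lowest. Dusp5 was at 10.2 CPM in FGF2 replicate 3 and at 0 in the other 3, Klb at 0.11 CPM and Flrt1 at 0.58 CPM in FGF2 replicate 1 alone, and Fgf18 at 0.48 CPM in FGF2 replicate 3 alone.

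Spike-in sequences, which no comparison used, had 15 counts in FGF2 replicate 1, 8 in FGF2 replicate 2 and 13 in FGF2 replicate 3 but 0 in FGF2 replicate 4, against at most 3 in a PBS library and 0 in the FGF10 libraries.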

How the results depend on the processing

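The count of 0 genes between FGF2 and FGF10 was 3 without a filter or with a mean of 10 counts (also 3 at an adjusted p below 0.01 and a log2 difference above 1; Mbp and Ccn2 lower, Car8 higher), 133 with DESeq2 (71 higher, 62 lower; 49 at the stricter threshold, 25 of these with at most 3 counts with 1 ligand), 460 at an unadjusted p below 0.05 and 674 by lack of overlap. With the replicate number as a block 1 gene was called (Car8). The count was 0 under the other fits and without any 1 of the 7 libraries. The cause of these shifts was not tested. To see whether the numbers pair the libraries, the mean log2 CPM of each gene within its ligand was subtracted first. Correlations of these deviations between same-numbered FGF2 and FGF10 libraries were 0.07, 0.05 and 0.12. FGF2 replicate 2 correlated best with FGF10 replicate 1 (0.07), so the numbers were not taken to pair the libraries. At 50 CPM or more the same-numbered correlations were 0.29, 0.25 and 0.41, but differently numbered libraries of 1 set gave 0.26 to 0.40, and FGF2 replicate 2 again correlated best with FGF10 replicate 1 (0.26).

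The 44 interaction genes were 1011 with DESeq2 (710 with 3 counts or fewer in 1 arm), 5 for FGF2 and 15 for FGF10 against PBS, and 39 to 168 with 1 library left out. At 50 CPM or more the 4 genes were 1 to 31 with 1 library left out, 2 for FGF2 against PBS, 0 for FGF10 against PBS (150 at an unadjusted p below 0.05 by edgeR) and 10 with PBS in the fit. The 23 genes within replicates 3 and 4 were 94 over every gene and 2 to 45 with 1 library left out, the 94 were 75 to 232, and the 0 within replicates 1 and 2 were 2 over every gene. The fits that leave out a library of the interaction, use PBS or look within a set were chosen after seeing the data. FGF10 replicate 3 could not be left out of them.

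Of 13 list medians 5 were above 0, and 8 were so at 50 CPM or more, with the replicate block or with PBS in the fit, 3 in replicates 1 and 2 alone, and 2 to 9 with 1 library left out. Of the 88 named genes 70 kept their direction in every fit. In replicates 1 and 2 alone Fgfrl1 turned to -0.012, Flrt2 to 0.78, Folr1 to -0.19 and Agt to 0.47. With PBS in the fit Fgf18 turned to 3.87 and Spred2 to 0.05. Without the set term Dusp6 turned to 0.94, Spry1 to 0.72, Spred2 to 0.51, Rrm1 to 0.083 and Folr1 to -0.41. With the replicate block Spry1 turned to 1.10 and Col1a2 to -0.37. With 1 library left out the log2 difference ran from -0.21 to 0.82 for Fgfr3, -0.14 to 0.56 for Fgfrl1, -0.80 to 0.076 for Frs2, -4.82 to 0.31 for Frs3, -0.11 to 0.031 for Grb2, -0.90 to 0.78 for Flrt2, -1.09 to 0.057 for Flrt3, -1.08 to 0.30 for Dusp6, -1.97 to 2.76 for Spry1, -1.56 to 2.29 for Spry4, -0.69 to 0.33 for Spred2, -0.068 to 7.0 for Rgs5, -2.15 to 2.33 for Col1a2, -0.19 to 6.13 for Folr1, -0.58 to 0.072 for Cldn2 and -1.05 to 0.47 for Agt. Below 20 CPM the spread between libraries is the limit, since the median standard error there was 1.32 or more.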

Other observations

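No gene named here passed the adjusted threshold over the 7 libraries. Bub1b, a kinase of the spindle checkpoint, was at 4.08, 4.91, 33.1 and 33.1 CPM with FGF2 and at 15.1, 16.02 and 37.6 CPM with FGF10, lower with FGF2 in each set (-1.19, SE 0.67). Rrm1, a subunit of ribonucleotide reductase, was at 18.7, 20.6, 71.4 and 73.6 CPM with FGF2 and at 43.2, 37.9 and 49.2 CPM with FGF10, and Cdkn1c, a cell cycle inhibitor, differed by -0.67 (SE 0.36).

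Among the markers of other cells, Cnp, an oligodendrocyte enzyme, was at 309.4, 337.0, 193.3 and 228.6 CPM with FGF2 and at 398.4, 329.5 and 397.3 CPM with FGF10 (-0.47, SE 0.20, unadjusted p = 0.031 by edgeR). Pdgfra, the receptor that marks oligodendrocyte precursors, was at 46.4, 56.7, 14.1 and 27.9 CPM with FGF2 and at 25.1, 37.8 and 13.2 CPM with FGF10 (0.70, SE 0.46). The cilia regulator Foxj1 was at 299.8, 297.7, 114.0 and 78.5 CPM with FGF2 and at 440.8, 303.8 and 136.4 CPM with FGF10, lower with FGF2 in each set (-0.39, SE 0.21). Pdgfrb, a mural cell receptor, was at 14.3, 16.3, 0 and 0 CPM with FGF2 and at 28.6, 31.5 and 5.51 CPM with FGF10. Map2 and Gad1, which mark neurons, differed by -0.07 (SE 0.14) and 1.85 (SE 1.36).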
